A study of Homo sapiens with 6 samples.

Results

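The 10 genes described here encode enzymes that make serine, carry its one-carbon units through folate, and make asparagine and cysteine: PHGDH, PSAT1, PSPH, SHMT1, SHMT2, MTHFD2, MTHFD1L, ALDH1L2, ASNS and CTH. They were chosen by name as members of these pathways, with earlier results of these data known. Each symbol had 1 row among the 60605 genes of the deposited table. RNA was sequenced from Huh-7, a human hepatoma line, in 3 libraries of cells given 100 µM pectolinarigenin, a plant flavone, for 24 h and in 3 libraries of vehicle controls (DMSO, 0 µM pectolinarigenin). Cells of both groups had first been loaded with 100 µM oleic acid for 24 h, as a high-lipid model, and then starved, so no library shows Huh-7 cells without the fatty acid. All libraries come from 1 cell line. Nothing in the labels tells whether replicate libraries were separate cultures, and the p-values therefore cover the spread among these 6 libraries, possibly technical, and no more.

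Cells make serine from a glycolytic intermediate in a short chain of enzymes (PHGDH, PSAT1, PSPH). Serine hydroxymethyltransferases then split serine into glycine and a one-carbon unit bound to tetrahydrofolate, which mitochondria can turn into formate for export and the cytosol uses to build purines and thymidylate and to remethylate homocysteine. Many genes of these steps, with ASNS and CTH, are known targets of ATF4, the transcription factor through which cells respond to amino acid shortage and related stresses.

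Total counts were 16054283 to 20311261 in the pectolinarigenin libraries and 15140022 to 18652800 in the control libraries. Mitochondrially encoded genes held 4.81% to 5.64% of counts in the pectolinarigenin libraries and 5.18% to 5.38% in the control libraries. The first principal component of log2 CPM (counts scaled to library size) carried 71.8% of the variance and set the groups apart, and the second, with 9.64%, set pectolinarigenin library 3 apart from libraries 1 and 2. All 11 hepatocyte or hepatoma markers were at 1 FPKM or more on average, and their summed level was 9051 to 9815 FPKM in pectolinarigenin libraries and 12341 to 12547 FPKM in control libraries, a sum made up mostly of ALB and AFP. Of these 11 markers 6 were lower in every pectolinarigenin library than in any control library, FOXA2, KRT8 and KRT18 were higher, and APOA1 and APOB overlapped. Among all tested genes, compared by CPM and not FPKM, 29.2% were lower and 29.4% higher without overlap. Of 5 leukocyte, 4 endothelial and 5 stellate cell or fibroblast markers, KDR and LUM were listed at 0 in every library, PTPRC reached at most 0.01 FPKM, and only LYZ and PECAM1 averaged 1 FPKM or more. LYZ was at 52.6 to 76.5 FPKM in pectolinarigenin libraries and 39.3 to 39.8 FPKM in controls, and PECAM1 was at 1.15 to 1.35 FPKM against 2.28 to 2.61 FPKM in controls. The part of these markers in the results was not tested, and in bulk RNA fewer cells of a type and less RNA per cell cannot be told apart.

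The promoters of ASNS and MTHFD1L, the members with the largest fold changes, are shown because both hold the letters to which ATF4 and C/EBP factors are known to bind together, the C/EBP-ATF response element. RefSeq promoter windows (GRCh38.p14) were available for 7 of the 10 members: PHGDH, PSAT1, SHMT1, MTHFD2, MTHFD1L, ASNS and CTH. SHMT2, PSPH and ALDH1L2 had no window and could not be searched. The 250 bases upstream of each listed start were searched on both strands for TGATGNAA, and the match stands in capitals with 11 bases on each side.
ASNS: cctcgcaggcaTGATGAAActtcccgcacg
MTHFD1L: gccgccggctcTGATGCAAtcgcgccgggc
The ASNS sequence lies at chr7:97872458-97872487 on the minus strand, with the match 68 to 61 bases upstream of the start. The MTHFD1L sequence lies at chr6:150866346-150866375 on the plus strand, with the match 129 to 122 bases upstream of 1 listed start and 90 to 83 bases upstream of another. Both matches read on the strand of their gene, and they differ only in the base that the search left free. The letters were in 3 of the 11 windows of the members, and in 2 of the 7 members searched. The 2 MTHFD1L windows with them hold the same site, and other windows of ASNS and MTHFD1L lacked them. They were not in the windows of PHGDH, PSAT1, SHMT1, MTHFD2 and CTH, of which all but SHMT1 also rose. Of all 35116 RefSeq windows searched, 3.14% held the letters, and counted by gene 3.89% of 27305 symbols had a window with them. A second motif, the core of the antioxidant response element, TGACNNNGC, was in 10.9% of all windows and 13.2% of symbols. It was in none of the 11 windows of these members. Matches are a description of the letters and not of binding.

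ASNS, MTHFD1L, SHMT2 and CTH had the largest fold changes among the members. Of the 10 members 9 passed the expression filter (a mean of at least 1 FPKM over the 6 libraries), and 7 of these 9 rose and 0 fell at an adjusted p under 0.05 (edgeR quasi-likelihood test). Of all 12829 tested genes 25.3% rose and 25.3% fell by the same rule, 50.6% in either direction. The changes were mostly below 2-fold: from ASNS at 2.35-fold and MTHFD1L at 2.04-fold through SHMT2 at 1.80-fold and CTH at 1.56-fold to PHGDH at 1.32-fold, MTHFD2 at 1.28-fold and PSAT1 at 1.19-fold. PSPH and SHMT1 did not pass the test, and ALDH1L2 was too low to be tested. The median log2 fold change of the 9 tested members was 0.40, beside a median of 0.00071 for all tested genes, whose middle part (25th to 75th percentile) ran from -0.25 to 0.24. ASNS passed the filter only through its level in pectolinarigenin libraries. With no expression filter all 10 members were tested, and 7 rose and 0 fell. In that fit 22.7% of all 34374 tested genes were called, 4111 higher and 3705 lower. Values in counts scaled to a common library size did not overlap between groups, with pectolinarigenin higher, in 7 of the 9 tested members, where 29.4% of all tested genes showed this.

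**Figure D1:**
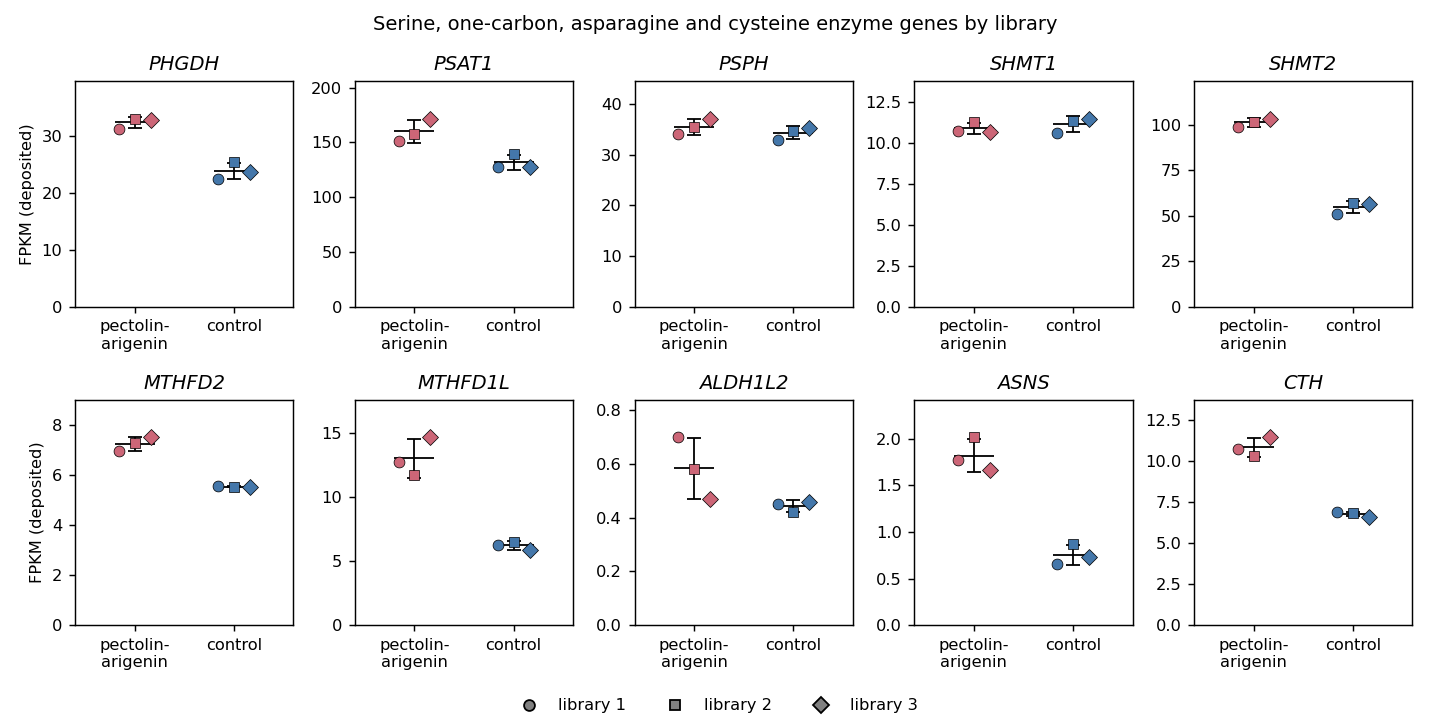
FPKM of each of the 10 genes in every library, with pectolinarigenin on the left and control on the right of each panel and a separate linear axis from 0 for each gene. Symbols mark libraries 1 to 3, and horizontal lines with bars show the mean and SD (n = 3). The groups overlap in PSPH and SHMT1, are nearly touching in ALDH1L2 (0.47 FPKM in pectolinarigenin library 3 and 0.46 FPKM in control library 3), and are apart in the other 7.

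**Figure D2:**
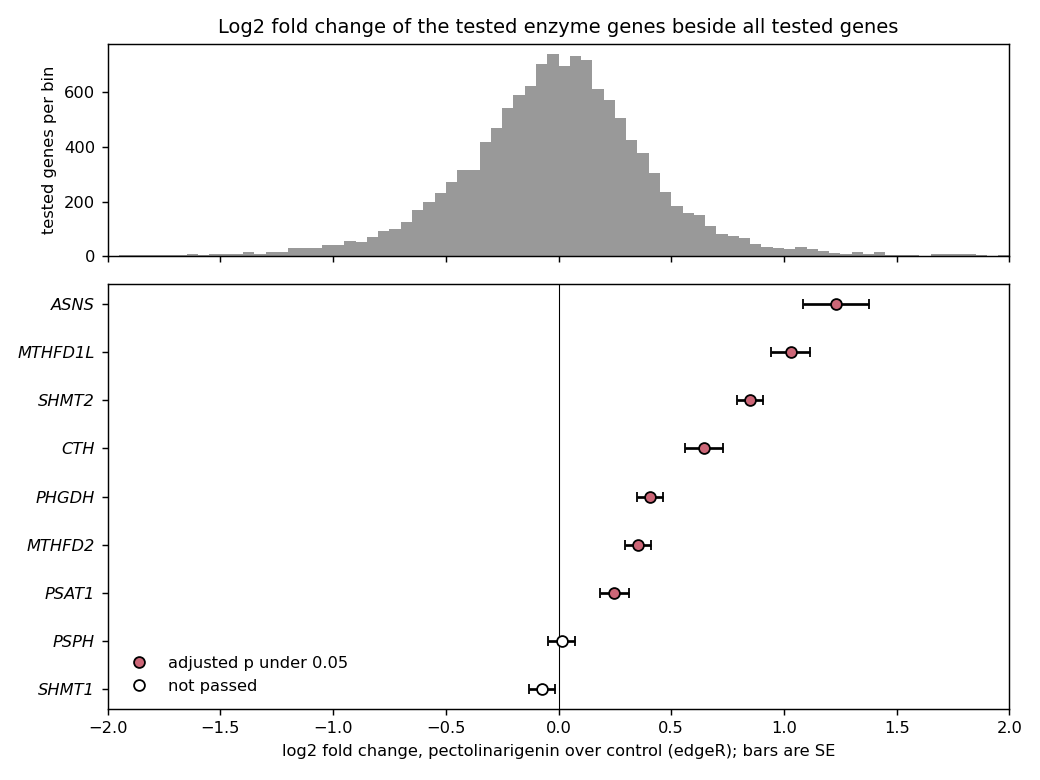
Upper panel, number of tested genes per bin of log2 fold change (bins of 0.05, drawn from -2 to 2, with 103 genes outside). Lower panel, log2 fold change of pectolinarigenin over control for the 9 tested members, with bars of 1 SE and filled symbols for an adjusted p under 0.05 (edgeR). The values run from -0.07 for SHMT1 to 1.23 for ASNS.

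Serine synthesis showed a rise at its first steps. PHGDH (ENSG00000092621, chromosome 1, 119648411 to 119744226, plus strand, GRCh38, as are all positions of members below), a protein-coding gene, encodes phosphoglycerate dehydrogenase, which commits the glycolytic intermediate to serine. Its FPKM (counts scaled for gene length and library size) were 31.3, 33.1 and 32.9 in pectolinarigenin libraries 1 to 3 and 22.5, 25.4 and 23.7 in control libraries 1 to 3. Every pectolinarigenin library was above every control library. The log2 fold change was 0.40 (SE 0.059, edgeR adjusted p = 5.03e-05), and 13.7% of tested genes had a larger one.

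PSAT1 (ENSG00000135069, chromosome 9, 78297143 to 78330093, plus strand) encodes phosphoserine aminotransferase, which adds the amino group from glutamate. It had 151.1, 158.0 and 171.6 FPKM in pectolinarigenin libraries and 127.7, 139.4 and 127.9 FPKM in control libraries. The groups did not overlap, and pectolinarigenin library 3 was highest. PSAT1 had a log2 fold change of 0.25 (SE 0.064, edgeR adjusted p = 0.0049), and without pectolinarigenin library 3 it was 0.19 (adjusted p = 0.0045).

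PSPH (ENSG00000146733, chromosome 7, 56011051 to 56051604, minus strand) encodes phosphoserine phosphatase, which releases serine. Its values, 34.0, 35.4 and 37.1 FPKM with pectolinarigenin and 32.8, 34.7 and 35.3 FPKM in controls, overlapped. The log2 fold change of PSPH was 0.014 (95% interval -0.11 to 0.14, edgeR adjusted p = 0.863). The table also lists the pseudogene PSPHP1, with 403 to 578 counts in pectolinarigenin libraries and 363 to 461 in control libraries, so the division of reads between the copies is uncertain. PSPHP1 had a log2 fold change of 0.12 (SE 0.085, edgeR adjusted p = 0.261).

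Among the folate enzymes, mitochondrial SHMT2, MTHFD1L and MTHFD2 rose, and cytosolic SHMT1 did not pass the test. The 95% intervals of the log2 fold change were 0.72 to 0.97 for SHMT2 and 0.85 to 1.22 for MTHFD1L, above that of MTHFD2 at 0.23 to 0.48. SHMT2 (ENSG00000182199, chromosome 12, 57229327 to 57234935, plus strand) encodes the mitochondrial serine hydroxymethyltransferase. It had 98.7, 101.7 and 103.4 FPKM in pectolinarigenin libraries and 51.0, 57.1 and 56.4 FPKM in control libraries. The spread within each group was small beside the gap between the groups. Its log2 fold change was 0.85 (SE 0.059, edgeR adjusted p = 4.61e-08), with 3.23% of tested genes above it. An antisense gene shares 8.83% of the SHMT2 exons in GENCODE 29 and had 5 to 14 counts in pectolinarigenin libraries and 1 to 6 in control libraries, against 7279 to 9642 and 3919 to 4889 for SHMT2.

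SHMT1 (ENSG00000176974, chromosome 17, 18327860 to 18363563, minus strand), which encodes the cytosolic form of the enzyme, had 10.7, 11.3 and 10.7 FPKM in pectolinarigenin libraries. The control libraries had 10.6, 11.4 and 11.5 FPKM, so the groups overlapped. SHMT1 had a log2 fold change of -0.07 (95% interval -0.19 to 0.05, edgeR adjusted p = 0.308).

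MTHFD2 (ENSG00000065911, chromosome 2, 74198562 to 74217565, plus strand) encodes the mitochondrial enzyme that oxidises the one-carbon unit further. It had 6.96, 7.30 and 7.52 FPKM in pectolinarigenin libraries and 5.57, 5.53 and 5.53 FPKM in control libraries. The control values were nearly equal, and all pectolinarigenin values lay above them. MTHFD2 had a log2 fold change of 0.35 (SE 0.058, edgeR adjusted p = 0.000135). SLC4A5, on the opposite strand, shares 27.2% of the MTHFD2 exons and had 24 to 28 counts in pectolinarigenin libraries and 13 to 16 in control libraries, against 1279 to 1748 and 958 to 1186 for MTHFD2. Another gene on the opposite strand, AC006030.1, shares 6.06% of the MTHFD2 exons, and its counts were not examined.

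MTHFD1L (ENSG00000120254, chromosome 6, 150865549 to 151101887, plus strand) encodes the mitochondrial ligase that releases the one-carbon unit as formate, and its promoter holds the response element letters printed above. Its FPKM were 12.7, 11.7 and 14.7 with pectolinarigenin and 6.29, 6.50 and 5.87 in controls. The lowest pectolinarigenin value was well above the highest control value, and pectolinarigenin library 3 was highest. The log2 fold change of MTHFD1L was 1.03 (SE 0.087, edgeR adjusted p = 2.97e-07). Without pectolinarigenin library 3 it was 0.93 (adjusted p = 1.80e-11).

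ALDH1L2 (ENSG00000136010, chromosome 12, 105019784 to 105084577, minus strand) encodes a mitochondrial dehydrogenase that oxidises the folate-bound one-carbon unit to carbon dioxide while making NADPH. It had 106, 89 and 90 counts in pectolinarigenin libraries and 79, 75 and 66 in control libraries, which is 0.70, 0.58 and 0.47 FPKM against 0.45, 0.42 and 0.46 FPKM. Pectolinarigenin library 3 was barely above the controls. ALDH1L2 did not pass the expression filter. With no filter its log2 fold change was 0.36 (SE 0.17, edgeR adjusted p = 0.113). With the filter that edgeR itself provides it was 0.35 (SE 0.17, edgeR adjusted p = 0.0889).

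ASNS (ENSG00000070669, chromosome 7, 97852118 to 97872542, minus strand) encodes asparagine synthetase, which makes asparagine from aspartate and glutamine and is a textbook target of ATF4 through the promoter element printed above. It had 1.77, 2.02 and 1.67 FPKM in pectolinarigenin libraries and 0.66, 0.87 and 0.73 FPKM in control libraries, which rest on 139, 161 and 166 counts against 60, 79 and 54. Every pectolinarigenin value was well above every control value. The log2 fold change of ASNS was 1.23 (SE 0.15, edgeR adjusted p = 7.83e-06), and 1.45% of tested genes had a larger one. By limma on log2(FPKM + 1) it was 0.69 (adjusted p = 0.00111), on a scale that understates changes of low genes.

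The count of ASNS is uncertain because 2 other rows of the table share its sequence. A non-coding gene on the same strand, AC079781.5, covers 44.6% of the ASNS exons in GENCODE 29 and had 53, 36 and 55 counts in pectolinarigenin libraries and 45, 33 and 26 in control libraries. The pseudogene ASNSP1 had 182, 185 and 210 counts in pectolinarigenin libraries and 47, 60 and 47 in control libraries, more than ASNS itself in every pectolinarigenin library and fewer in every control library. ASNSP1 had a log2 fold change of 1.86 (SE 0.14, edgeR adjusted p = 9.60e-08). Summed over ASNS and ASNSP1, the level was 18.5 to 20.8 CPM in pectolinarigenin libraries and 5.84 to 7.55 CPM in control libraries, with TMM-scaled library sizes. How the counting treated reads that fit more than 1 gene is not given in the sources used here, and its part in the low level of ASNS was not tested.

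CTH (ENSG00000116761, chromosome 1, 70411218 to 70439851, plus strand) encodes cystathionine gamma-lyase, the enzyme that forms cysteine at the end of transsulfuration. Its FPKM were 10.7, 10.3 and 11.4 in pectolinarigenin libraries and 6.87, 6.80 and 6.59 in control libraries. The control values were close together and far below the pectolinarigenin values. CTH had a log2 fold change of 0.64 (SE 0.084, edgeR adjusted p = 1.83e-05), with 6.02% of tested genes above it.

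In level per gene length, PSAT1 and SHMT2 led in both groups. In pectolinarigenin libraries the mean FPKM of PSAT1 was 160.2 ± 10.5, followed by SHMT2 at 101.3 ± 2.3, PSPH at 35.5 ± 1.5 and PHGDH at 32.5 ± 1.0 (SD, n = 3 each). MTHFD1L (13.0 ± 1.5), SHMT1 (10.9 ± 0.33), CTH (10.8 ± 0.58) and MTHFD2 (7.26 ± 0.28) were intermediate, and ASNS (1.82 ± 0.18) and ALDH1L2 (0.58 ± 0.12) were lowest. The ranges of the neighbours SHMT1 and CTH overlapped in pectolinarigenin libraries. In control libraries the order was PSAT1 (131.6 ± 6.7), SHMT2 (54.8 ± 3.3), PSPH (34.3 ± 1.3), PHGDH (23.9 ± 1.5), SHMT1 (11.1 ± 0.48), CTH (6.75 ± 0.15), MTHFD1L (6.22 ± 0.32), MTHFD2 (5.54 ± 0.023), ASNS (0.75 ± 0.11) and ALDH1L2 (0.44 ± 0.021), with no overlap between neighbours.

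This order depends on the gene length behind the authors' FPKM. That length, recovered from counts and FPKM, was 9187 bases for PHGDH, whose principal transcript has 2585 bases in GENCODE 29, and 11443 bases for MTHFD2, whose exons sum to 4870 bases there. With the principal transcript as the length, an alternative chosen after seeing the data, the means with pectolinarigenin became 183.3 for SHMT2, 161.6 for PSAT1, 115.4 for PHGDH, 45.0 for PSPH, 32.1 for SHMT1, 18.6 for MTHFD2, 17.7 for MTHFD1L and 14.5 for CTH. In controls they became 99.2 for SHMT2, 132.7 for PSAT1, 84.9 for PHGDH, 43.5 for PSPH, 32.9 for SHMT1, 14.2 for MTHFD2, 8.44 for MTHFD1L and 9.03 for CTH. On this scale the mean of SHMT2 exceeded that of PSAT1 in pectolinarigenin libraries but not in controls. Fold changes of a gene are not touched by its length.

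Ratios between partner enzymes within a library show how the members moved relative to each other, free of the scaling between libraries. The level of a ratio depends on the gene lengths behind the FPKM, and the fold difference between groups does not. For the mitochondrial over the cytosolic serine hydroxymethyltransferase, the SHMT2/SHMT1 ratio of FPKM was 9.23, 9.03 and 9.69 in pectolinarigenin libraries and 4.81, 5.02 and 4.91 in control libraries, a 1.89-fold difference (0.92 on the log2 scale). MTHFD1L/MTHFD1, the mitochondrial formate ligase over the cytosolic enzyme that takes formate up into folate, was 3.09, 2.84 and 3.89 with pectolinarigenin and 1.46, 1.53 and 1.37 in controls, a 2.24-fold difference. MTHFD2/MTHFD1 was 1.69 to 1.99 with pectolinarigenin and 1.29 to 1.30 in controls (1.40-fold). MTHFD2 over its close mitochondrial relative, MTHFD2/MTHFD2L, was 3.80, 4.56 and 5.01 with pectolinarigenin and 5.99, 5.70 and 5.95 in controls, a difference of -0.41 on the log2 scale.

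Within serine synthesis, PSAT1/PHGDH was 4.77 to 5.21 in pectolinarigenin libraries and 5.39 to 5.67 in control libraries, and PSAT1/PSPH was 4.44 to 4.62 against 3.62 to 4.01. CTH/CBS, cystathionine gamma-lyase over the enzyme that makes its substrate, was 3.24, 2.65 and 3.59 with pectolinarigenin and 1.84, 1.81 and 1.89 in controls, a 1.70-fold difference. CBS has a near-identical copy, CBSL, with 19 to 28 counts in pectolinarigenin libraries and 13 to 75 in control libraries, so the level of CBS is uncertain. Each of the 7 ratios had no overlap between groups and a 2-sided exact permutation p of 0.1, also 0.1 after Benjamini-Hochberg adjustment over the 7 pairs. That is the smallest p that 3 libraries against 3 can give, so no ratio could pass 0.05. Among all tested genes, scaled counts did not overlap in 29.4% (higher) and 29.2% (lower), and the share among ratios of other genes was not computed. Pairs that share MTHFD2, MTHFD1 or PSAT1 are not independent. ALDH1L2/ALDH1L1 and ASNS/ASPG were not formed, since ALDH1L1 had 0 to 2 counts and ASPG 0 or 1 in every library.

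**Figure D3:**
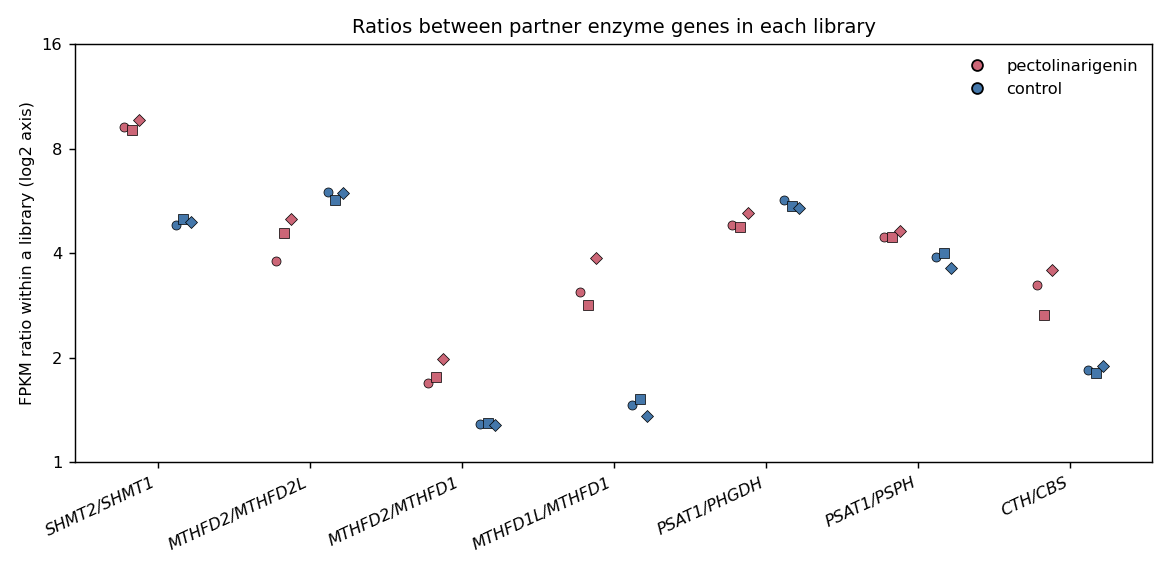
Ratio of FPKM between partner genes within each library, on a log2 axis, with pectolinarigenin left of control in each pair. Each symbol is 1 library (circle, square and diamond for libraries 1 to 3). SHMT2/SHMT1 lies at 9.03 to 9.69 with pectolinarigenin and 4.81 to 5.02 in controls, and MTHFD2/MTHFD2L and PSAT1/PHGDH are lower with pectolinarigenin.

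The profiles of the tested members over the 6 libraries, as log2 CPM minus the control mean, were compared by Euclidean distance. PHGDH and MTHFD2 were the closest members (0.17), followed by PSPH and SHMT1 (0.19), and ASNS and SHMT1 were farthest apart (2.25). The 3 genes outside the members nearest to ASNS were ASS1 (0.24), CNGA1 (0.25) and ZNF10 (0.26). Those nearest to PHGDH were ABHD17B (0.055), CCDC137 (0.058) and LONP1 (0.069), with log2 fold changes of 0.40, 0.43 and 0.41 beside 0.40 for PHGDH. With the control mean subtracted and only 2 groups, nearness mostly restates a similar fold change. Shared regulation was not tested.

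Other genes of the pathways included both rises and falls. Of 91 further listed genes in the neighbouring lists 81 were tested, and 34 rose, 23 fell and 24 did not pass (edgeR), with a median log2 fold change of 0.038. These are 42.0% higher and 28.4% lower, beside 25.3% each way among all tested genes, against which the counts of the single lists below are also to be read. The 34 rises include 7 of 8 tested carriers and 11 of 15 tested stress regulators, 2 lists without enzymes of these pathways. Of the 23 falls 0 were in carriers and 2 in regulators, so the pooled share does not describe the neighbouring enzymes alone. Of 6 other tested mitochondrial folate genes 4 fell and 2 rose. SFXN3 and SFXN1, a carrier relative and the carrier that brings serine into mitochondria, changed by -1.0 (SE 0.076) and -0.42 (SE 0.052). SARDH and DMGDH, which oxidise sarcosine and dimethylglycine and pass the carbon to folate, changed by -0.94 (SE 0.090) and -0.66 (SE 0.078). MTHFD2L rose to 1.64 ± 0.17 FPKM with pectolinarigenin, against 0.94 ± 0.023 FPKM in controls (SD, n = 3 each; log2 fold change 0.76, SE 0.10, edgeR adjusted p = 3.01e-05), and it passed the filter only through the pectolinarigenin group. By limma on log2(FPKM + 1) the change of MTHFD2L was 0.44. MTFMT, which formylates the mitochondrial initiator tRNA, rose by 0.34 (SE 0.11).

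Of 10 tested cytosolic folate genes 5 fell, 2 rose and 3 did not pass. FTCD, which takes one-carbon units from histidine breakdown, fell by 0.52 and thymidylate synthase, TYMS, fell by 0.25 on the log2 scale (edgeR adjusted p = 0.000198 and 0.00305). The folate carrier SLC19A1 rose by 0.46 (SE 0.11) and FPGS, which retains folate in cells, by 0.19 (SE 0.074, adjusted p = 0.0465). FPGS lost its call under 8 of 15 alternatives, with adjusted p up to 0.141. MTHFD1 had a log2 fold change of -0.14 (SE 0.062, edgeR adjusted p = 0.0742).

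Of 6 tested genes of serine and glycine breakdown 3 rose and 1 fell. GLDC, which encodes the decarboxylase of the glycine cleavage system, had 12.4 ± 0.48 FPKM with pectolinarigenin and 16.2 ± 0.34 FPKM in controls (SD, n = 3 each; log2 fold change -0.43, SE 0.055, edgeR adjusted p = 1.41e-05). GCSH, its lipoyl carrier protein, rose by 0.47 (SE 0.15, adjusted p = 0.0173), SDSL, a serine dehydratase relative, by 0.40 (SE 0.10) and GCAT, which cleaves the threonine breakdown product to glycine, by 0.30 (SE 0.097, adjusted p = 0.0170). GCSH was not called by DESeq2 (adjusted p = 0.0554) or without control library 1 (0.0702) or pectolinarigenin library 2 (0.0543). GCAT was not called without control library 1 (adjusted p = 0.0959, log2 fold change 0.25) or pectolinarigenin library 3 (adjusted p = 0.0692, log2 fold change 0.19). MTFMT was not called without control library 1 (adjusted p = 0.125, log2 fold change 0.22) or pectolinarigenin library 3 (0.0532). The table also lists pseudogene rows for GCSH and GLDC, so the division of their reads is uncertain.

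Of 11 tested genes of the methionine cycle 5 fell and MAT2A rose. MAT2A, the S-adenosylmethionine synthetase of most tissues, had 52.5 ± 2.5 FPKM with pectolinarigenin and 34.6 ± 1.3 FPKM in controls (SD, n = 3 each; log2 fold change 0.56, SE 0.060, edgeR adjusted p = 2.61e-06). MAT1A, the form typical of adult liver, had 9.09 ± 1.77 FPKM with pectolinarigenin and 16.8 ± 1.6 FPKM in controls (log2 fold change -0.93, SE 0.11, adjusted p = 5.79e-06). The methionine synthase MTR fell by 0.46 and MTAP, which salvages methionine, by 0.27 on the log2 scale.

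In the list of transsulfuration, cysteine and glutathione 4 of 9 tested genes rose and GSS fell. CHAC1, which degrades glutathione, had 4.72 ± 0.38 FPKM with pectolinarigenin and 0.75 ± 0.053 FPKM in controls (SD, n = 3 each; log2 fold change 2.61, SE 0.16, edgeR adjusted p = 1.45e-08), and passed the filter only through the pectolinarigenin group. By limma on log2(FPKM + 1) the change of CHAC1 was 1.71. GOT1, the cytosolic aspartate aminotransferase, rose by 0.31 (SE 0.058) and MPST, which moves sulfur from a cysteine product, by 0.18 (SE 0.055, adjusted p = 0.0137). MPST was not called without control library 3 (0.0748). GSS, glutathione synthetase, fell by 0.26 on the log2 scale, and CBS had a log2 fold change of -0.12 (SE 0.087, edgeR adjusted p = 0.261).

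Of 12 tested genes around aspartate and glutamate 4 rose and 4 fell, 33.3% each way beside 25.3% each way among all tested genes. ASS1, which joins aspartate to citrulline, had 70.4 ± 6.3 FPKM with pectolinarigenin and 30.8 ± 1.2 FPKM in controls (SD, n = 3 each; log2 fold change 1.15, SE 0.066, edgeR adjusted p = 5.27e-09). GPT2, the mitochondrial alanine aminotransferase, rose by 0.69 (SE 0.090). GLUD1, the mitochondrial glutamate dehydrogenase, had 19.5 ± 2.7 FPKM with pectolinarigenin and 42.5 ± 0.38 FPKM in controls (log2 fold change -1.16, SE 0.076, adjusted p = 2.18e-08), GLUL, glutamine synthetase, fell by 0.32 and ASL, the enzyme after ASS1, also fell by 0.32 on the log2 scale. The table lists GLUD2 and pseudogenes of GLUD1, which can share its reads.

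Most listed amino acid carriers and stress regulators rose. Of 8 tested carriers of serine, neutral amino acids and cystine 7 rose and 0 fell, with a median log2 fold change of 0.76, led by SLC3A2 (1.87, SE 0.064), SLC7A5 (1.41, SE 0.10) and SLC7A11 (1.40, SE 0.075). Of 15 tested regulators 11 rose and 2 fell, with a median of 0.62; the 3 rises with the smallest p were PPP1R15A (2.19, SE 0.072), DDIT3 (1.83, SE 0.081) and ATF3 (2.85, SE 0.15), of which ATF3 passed the filter only through the pectolinarigenin group. ATF4 itself had 150.8 ± 7.4 FPKM with pectolinarigenin and 91.3 ± 2.6 FPKM in controls (SD, n = 3 each; log2 fold change 0.69, SE 0.058, edgeR adjusted p = 3.20e-07). The falls were in the kinases EIF2AK4 (-0.32, SE 0.095) and EIF2AK2 (-0.21, SE 0.079, adjusted p = 0.0377), which phosphorylate the initiation factor upstream of ATF4. EIF2AK2 was called in 5 of 15 alternatives (adjusted p up to 0.171), and EIF2AK4 in 11 of 14 (adjusted p up to 0.0994).

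**Figure D4:**
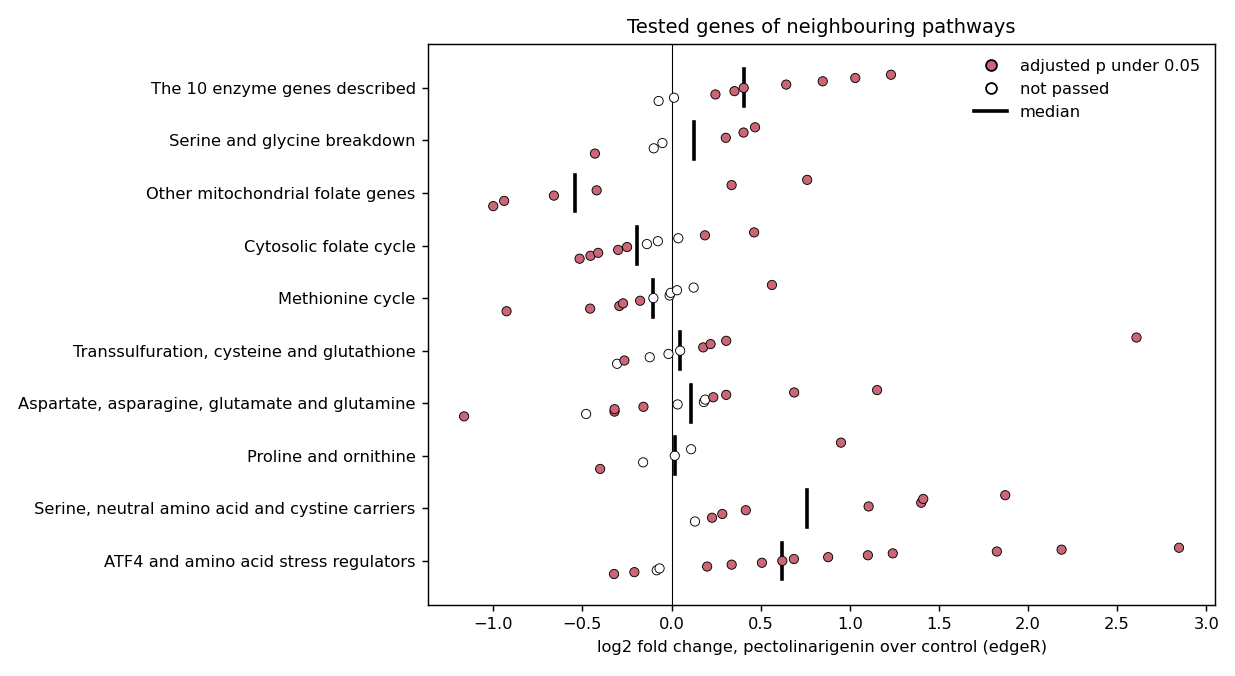
Log2 fold change of pectolinarigenin over control for each tested gene (points) of the members and 9 neighbouring lists, with the list median as a black bar and filled points for an adjusted p under 0.05 (edgeR). The medians run from -0.54 for the other mitochondrial folate genes to 0.76 for the carriers.

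The members' fold changes kept their direction and their side of the threshold in the alternatives run, apart from the sign of PSPH. Of the 9 tested members, 7 rose and 0 fell under each of the 6 fits with 1 library left out. In these fits 41.3% to 50.8% of all 12829 tested genes were called in either direction. Leaving out pectolinarigenin library 3, which stood apart, gave log2 fold changes of 0.39 for PHGDH, 0.83 for SHMT2, 0.32 for MTHFD2, 0.59 for CTH and 1.29 for ASNS.

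**Figure D5:**
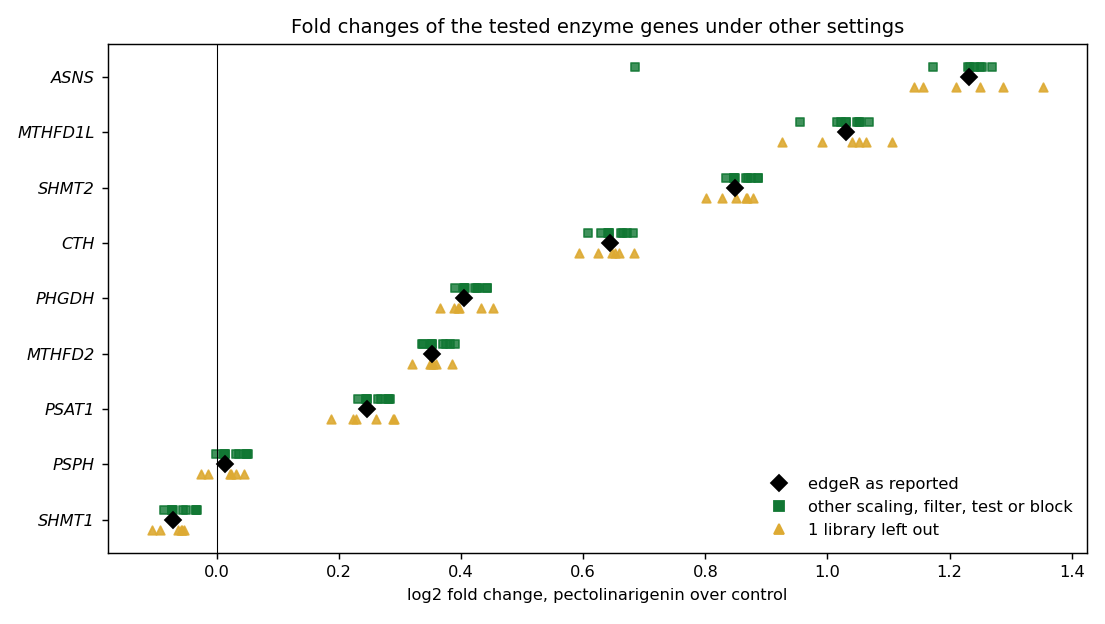
Log2 fold change of pectolinarigenin over control for each tested member as reported (black diamonds), under other scalings, filters, tests or a replicate block (green squares) and with 1 library left out (yellow triangles). The square of ASNS at 0.69 is limma on log2(FPKM + 1). The other symbols of ASNS run from 1.14 to 1.35, those of MTHFD1L from 0.93 to 1.11 and those of PSAT1 from 0.19 to 0.29. Those of PSPH fall on both sides of 0.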

How the data were processed

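Gene counts and FPKM of 60605 genes in 6 libraries were taken as deposited by the authors. The submitters' processing notes name cutadapt 1.9.1, HISAT2 2.0.1 and HTSeq 0.6.1. Which annotation, gene lengths and strand setting they used is not stated there. The deposited counts were tested with edgeR 4.0.16 (quasi-likelihood test, TMM scaling, R 4.3.3), pectolinarigenin over control with 3 libraries each, over 12829 genes with a mean of at least 1 FPKM, with Benjamini-Hochberg adjustment and a threshold of 0.05. The test was checked on simulated counts. No libraries agreed within sampling noise.

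The members and lists were chosen with earlier results of these data known. In each neighbouring list the text names up to 3 called genes per direction with the smallest p, and a few further partner enzymes; some genes that this rule names are not reported here. SFXN1 and the genes marked as pseudogenes or overlaps were added after their values were seen. Ratios of FPKM were tested with an exact permutation test. Positions and exons come from GENCODE 29 on GRCh38 and promoter windows from RefSeq on GRCh38.p14. Alternatives were other scalings and filters, DESeq2 1.42.0, limma 3.58.1 on log2(FPKM + 1) and log2(FPKM + 0.1), a replicate block and each library left out.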

Additional observations from a re-analysis of the deposited data

How the results depend on the processing

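All 7 called members were called under each alternative that tested them, and the calls numbered 6 where a mean of at least 5 FPKM was required, since ASNS was then not tested. The log2 fold change of PSPH turned to -0.0011 with that filter, -0.014 without control library 1 and -0.026 without pectolinarigenin library 3; with 1 library left out it ran from -0.026 to 0.045. PSPH was not called in any alternative, and the cause was not tested. Among all tested genes 3243 rose and 3243 fell, against 3727 and 2820 with total counts as the only scaling. With no filter 34374 genes were tested, of which 4111 rose and 3705 fell, and with a mean of at least 5 FPKM 7144 were tested, of which 2088 rose and 2010 fell. The labels do not say whether replicate numbers pair the libraries. Same-numbered libraries had correlations of deviations of -0.0025, 0.016 and 0.0018, and differently numbered ones -0.029 to 0.026. With 3 libraries per group these values cannot settle the question. With the replicate number as a block 7 members rose and 0 fell, and 3249 of all genes rose and 3291 fell. With 1 library left out 2628 to 3252 genes rose and 2664 to 3265 fell, and of the 81 tested neighbouring genes 29 to 35 rose. The lowest counts behind a member were those of ALDH1L2 (66 to 106 per library) and ASNS (54 to 166).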

Other observations

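Of 5 tested genes of proline and ornithine metabolism 1 rose and 1 fell (edgeR). OAT, the mitochondrial ornithine aminotransferase, had a log2 fold change of 0.95 (SE 0.061, edgeR adjusted p = 2.05e-08). ALDH18A1, which makes the shared precursor of proline and ornithine from glutamate, had a log2 fold change of -0.40 (SE 0.053, edgeR adjusted p = 1.98e-05).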
